A study of Saccharomyces cerevisiae with 12 samples.

Results

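The ribosomal stalk of budding yeast is encoded by 5 genes, and their transcripts were followed here in RNA-seq of Saccharomyces cerevisiae. They are RPP0 (YLR340W), RPP1A (YDL081C), RPP1B (YDL130W), RPP2A (YOL039W) and RPP2B (YDR382W), 5 of the 6612 coding features quantified in each library. The genes were chosen by name as the known stalk proteins, at a time when their DUS KO over WT fold changes in these same 6 libraries were already known. The difference between the strains is therefore given as a description of these libraries and is not a test of the stalk. The study asked where dihydrouridine, a uridine whose ring has been reduced, lies in yeast RNA. WT was the laboratory strain BY4741. DUS KO was a dus1Δ dus2Δ dus3Δ dus4Δ quadruple mutant, labelled as lacking the dihydrouridine synthases, and was obtained by crossing a pair of double mutants and dissecting tetrads. Cells of both strains were grown to mid-log phase, and poly(A)-selected RNA from 3 libraries per strain was sequenced. The paper's methods give an OD of 6 for the culture from which RNA was isolated.

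The stalk is the flexible arm of the large ribosomal subunit. Its base is the protein P0 (uL10), made from RPP0, which sits on the ribosomal RNA of the GTPase centre and carries dimers of the small acidic proteins P1 and P2. The tails of these proteins bind the GTPases of translation, such as elongation factors eEF1A and eEF2, and in yeast the stalk also takes part in activating the kinase Gcn2.

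WT libraries held 4336794 to 5652837 estimated counts. DUS KO replicates 1, 2 and 3 held 5500084, 2856581 and 656162, so DUS KO replicate 3 was by far the shallowest. The fewest counts of any stalk gene in any library were 717, for RPP0 in DUS KO replicate 3. Of the deleted genes, DUS1 had 308 estimated counts in WT and 0 in DUS KO, each summed over 3 libraries, DUS2 had 442 and 3, and DUS4 had 470 and 0. DUS3 had 323 and 123, although it is labelled as deleted. Normalised for depth, it had 29.5, 16.5 and 25.1 CPM (counts scaled to a common library size) in WT and 10.8, 16.7 and 8.91 CPM in DUS KO. These groups overlapped, with a log2 fold change of -0.92 (SE 0.40, adjusted p = 0.577 in edgeR's test), and the part of the gene these reads came from cannot be read from totals. The paper states that PCR was used to genotype the mutant and that mass spectrometry found no dihydrouridine in its mRNA. The labels do not say whether the replicates came from separate cultures, so p-values measure only the spread between these libraries.

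The 4 genes for P1 and P2 are short and alike. In the R64 genome (sacCer3), RPP1A lies on chromosome IV from 309802 to 310122 on the minus strand, and RPP2A on chromosome XV from 254297 to 254617 on the plus strand. RPP1B lies on chromosome IV from 229906 to 230527 on the plus strand, where an intron of 301 nt (230020 to 230320) divides its coding part into 2 exons. RPP2B lies on chromosome IV from 1239492 to 1239824 on the plus strand. Coding lengths are 321 nt for RPP1A, RPP1B and RPP2A and 333 nt for RPP2B. RPP0 is longer, at 939 nt, on the plus strand of chromosome XII from 805887 to 806825. The coding sequences of RPP2A and RPP2B were identical at 76.3% of aligned bases and those of RPP1A and RPP1B at 70.8%, against 59.7% to 67.3% for a P1 gene with a P2 gene. The last 30 coding bases, stop codon included, show what all 5 genes share. They are given 5′ to 3′ from the RefSeq R64 genome, with the 25 bases identical in all 5 genes in capitals.
RPP0: GAcGACATGGGTTTcGGTTTATTcGAtTAa
RPP1A: GAcGACATGGGTTTcGGTTTATTtGAtTAg
RPP1B: GAcGACATGGGTTTcGGTTTATTcGAcTAa
RPP2A: GAcGACATGGGTTTcGGTTTATTcGAcTAa
RPP2B: GAtGACATGGGTTTtGGTTTATTcGAtTAa
These bases encode the common tail of the stalk proteins, the stretch that translation GTPases bind. RPP1B and RPP2A are identical here, and their longest shared run reached 45 nt, the longest of any pair. A read that lies wholly within such a run cannot be placed in 1 gene. For RPP1B and RPP2A, the estimated counts departed from whole numbers by more than 0.02 in 1 library only, and there their sum was whole. RPP1A and RPP2B had whole counts in all 6 libraries.

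RPP1A and RPP1B are also among the mRNAs in the study's list of dihydrouridine sites, with a site in the coding part of each. The windows around these positions are shown with the aligned window of the other P1 gene, since the list holds neither aligned position. They are read from the RefSeq R64 genome 5′ to 3′ on the coding strand. A capital T marks the base just 5′ of the listed position, or the base aligned with it. That base was taken as the site, since the paper reports that reverse transcription stops just 3′ of dihydrouridine.
RPP1A site: aatccgctttgtctTacgccgccttgatt
RPP1B aligned: actctattatttccTttgctgctttcatc
RPP1B site: cacctctgacaactTattgactatcacca
RPP1A aligned: ctcttctgaaaagtTgttgactttgacta
So placed, the RPP1A site is at position 310098 of chromosome IV, the first base of codon 9 (TAC). The RPP1B site is at position 229979, the second base of codon 25 (TTA), in the first exon. A uridine stands at both aligned positions, in codon 8 (TTT) of RPP1B and codon 26 (TTG) of RPP1A, and 16 of 29 and 21 of 29 bases of the windows are identical. The libraries that map dihydrouridine were not analysed here, so whether these positions carry it in the other gene was not tested.

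Levels of the stalk genes were compared per length, as TPM (reads divided by effective gene length and scaled to the same sum in each library). RPP1A was the most abundant stalk transcript in WT, with 18717, 21951 and 14312 TPM in replicates 1, 2 and 3. RPP2B, the P2 gene with the higher level, had 10454, 12577 and 11920 TPM. The minor partners lay lower, with 3594, 4422 and 2609 TPM for RPP2A and 2413, 2974 and 2638 TPM for RPP1B. RPP0, the gene for the base of the stalk, had the lowest level, with 460, 489 and 552 TPM. Neighbours in this order held it in 6 of 6 libraries for RPP1A over RPP2B, RPP2B over RPP2A, and RPP1B over RPP0. RPP2A exceeded RPP1B in 5 of 6 libraries, and their ranges overlapped in both strains, so the order of these 2 genes is within their spread. By TPM rank among all features, RPP1A stood at 6 to 8 in WT and 12 to 17 in DUS KO, and RPP0 at 188 to 214 and 245 to 257.

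**Figure D1:**
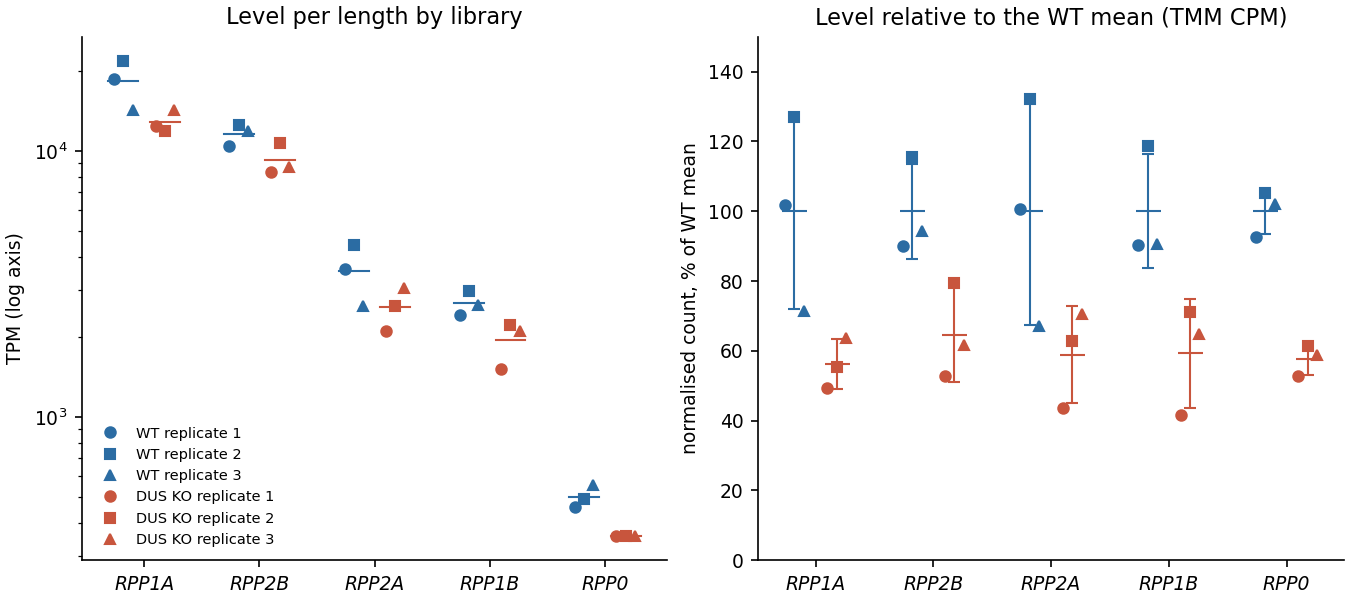
The left panel plots TPM on a log axis for each stalk gene and library, with horizontal lines at the means of 3 libraries. The right panel plots normalised counts as a percentage of the WT mean, with the mean and SD (n = 3), and the DUS KO points of every gene but RPP2A lie below all WT points.

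In DUS KO, normalised counts of the 5 stalk genes were at 56.2% to 64.6% of their WT means, and their TPM at 70.2% to 79.6%. The values below are CPM, counts scaled to a common library size and corrected with TMM factors for differences in the make-up of the libraries. They are compared between strains only and not between genes. For RPP0, WT replicates 1, 2 and 3 had 1678, 1902 and 1849 CPM and DUS KO replicates 954, 1113 and 1065 CPM. These groups lay far apart, with means of 1810 ± 117 and 1044 ± 81.6 CPM (SD, n = 3), and the log2 fold change was -0.79 (SE 0.16). RPP0 was thus the stalk gene with the least spread between replicates.

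RPP1A, the main P1 gene by transcript level, had 20335, 25418 and 14265 CPM in WT and 9881, 11081 and 12751 CPM in DUS KO. The lowest WT library and the highest DUS KO library were close, and the log2 fold change was -0.83 (SE 0.21). RPP1B, the other P1 gene, had 2622, 3444 and 2630 CPM in WT and 1210, 2065 and 1876 CPM in DUS KO. Its groups did not overlap either, and its log2 fold change was -0.76 (SE 0.21).

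RPP2A, the minor P2 gene, had 3905, 5121 and 2600 CPM in WT and 1685, 2429 and 2736 CPM in DUS KO. Its groups overlapped, since DUS KO replicate 3 lay above WT replicate 3, and the log2 fold change was -0.76 (SE 0.25). RPP2B had 11878, 15230 and 12424 CPM in WT and 6958, 10460 and 8134 CPM in DUS KO. Its groups did not overlap, and its log2 fold change of -0.63 (SE 0.19) was the closest to 0 of the 5.

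None of the 5 genes passed an adjusted p of 0.05 in edgeR's quasi-likelihood test, where their adjusted p ranged from 0.163 for RPP0 to 0.405 for RPP2A. That test called 0.085% of all 5884 features tested lower in DUS KO, with the deleted genes DUS1, DUS2 and DUS4 among them. All 5 stalk genes had an unadjusted p under 0.05 and were lower, as were 4.93% of features. DESeq2 called 4 of the 5 lower, all but RPP2A, against 1.89% of the 2006 features to which it gave an adjusted p, and limma-voom called 0. In CPM, 4 of 5 genes had all DUS KO libraries below all WT libraries, against 7.68% of features. In TPM this held for 3 of 5 genes, RPP0, RPP1A and RPP1B, against 2.01% of features, and for RPP1A it rested on 14312 TPM in WT replicate 3 and 14294 TPM in DUS KO replicate 3. Since this contrast was known when the genes were chosen, these shares are printed for scale and nothing is read from them.

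The size of the difference depended on the unit. With limma on log2(TPM + 1) the log2 fold changes were -0.49 for RPP0, -0.49 for RPP1A, -0.47 for RPP1B, -0.43 for RPP2A and -0.33 for RPP2B, and 3 of 5 had an unadjusted p under 0.05. With total counts alone they ranged from -0.64 for RPP1A to -0.44 for RPP2B. The size also depended on a pair of libraries. In CPM, WT replicate 2 was the highest WT library for 5 of 5 stalk genes and DUS KO replicate 1 the lowest DUS KO library for 5 of 5. Without both, the log2 fold changes were -0.69 for RPP0, -0.54 for RPP1A, -0.41 for RPP1B, -0.33 for RPP2A and -0.39 for RPP2B, and 1 of 5 kept an unadjusted p under 0.05. These libraries were picked after their stalk values were seen, and leaving out the highest WT and the lowest DUS KO library works towards a smaller difference. The sign stayed negative for all 5 genes under 19 of 19 alternatives. These refit the same libraries or part of them, where the sign was already known, so nothing is read from this agreement. RPP1A alone passed edgeR's threshold without WT replicate 3, at a log2 fold change of -1.03 (adjusted p = 0.0291). In bulk RNA of a culture, fewer cells with a transcript and less of it per cell cannot be told apart.

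**Figure D2:**
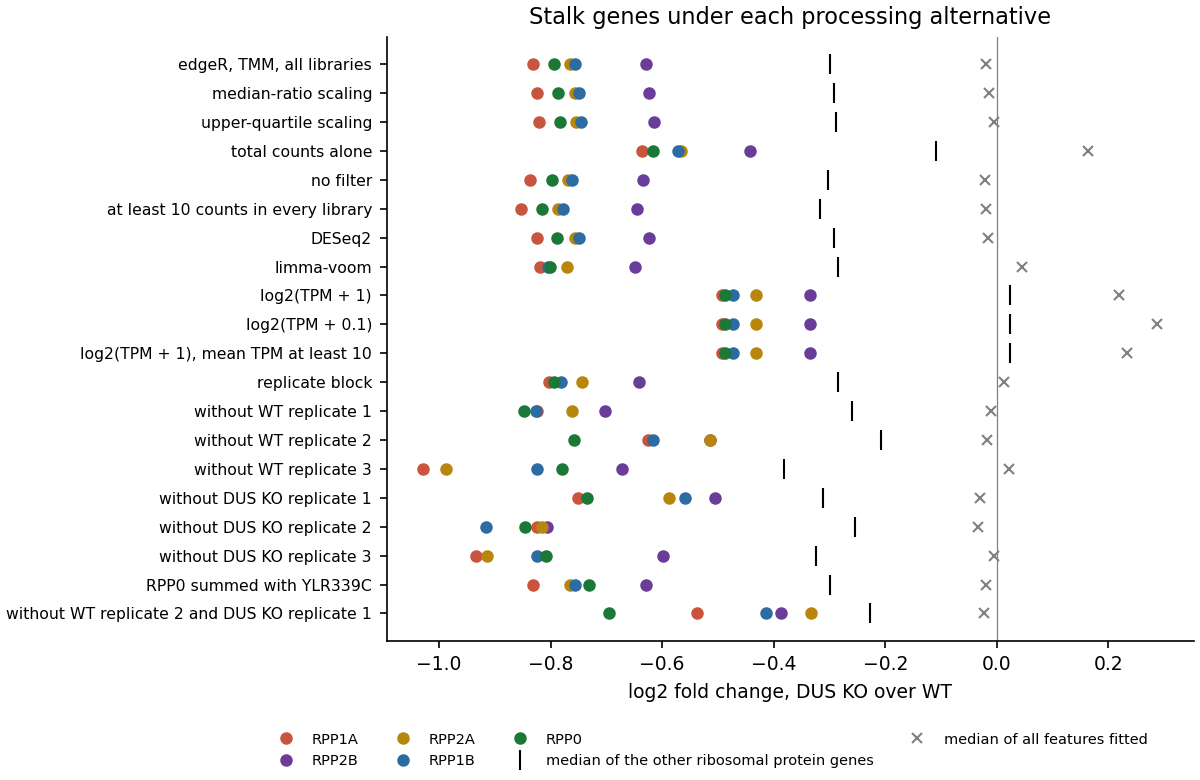
Log2 fold changes of the 5 stalk genes (coloured points) in DUS KO over WT under each way of processing the counts or TPM, with the median of 132 other ribosomal protein genes (black bars) and of all features fitted (crosses). All stalk points lie below 0, between -1.03 and -0.33.

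The read assignment of RPP0 moved its value little. Its estimated counts were not whole in 5 libraries, but the sum with YLR339C, a feature of 552 nt outside the RefSeq annotation, was whole in all 6. YLR339C took 1.56% to 4.67% of this sum in WT and 5.07% to 9.26% in DUS KO. With both features summed, an alternative added after the data were seen, the log2 fold change of RPP0 was -0.73 (edgeR, adjusted p = 0.197).

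Other proteins of the ribosome give the scale for these values. The 132 genes for the remaining large and small subunit proteins had a median log2 fold change of -0.30, with 122 negative. Over all 5884 features tested the median was -0.02, with 3034 negative. In edgeR's test 0 of them were called, while 39 had an unadjusted p under 0.05 and were lower and 1 was higher, beside 4.93% and 3.33% of all features. DESeq2 called 5 large subunit and 3 small subunit genes, all lower, beside 1.89% of all features to which it gave an adjusted p. The median of the stalk genes was -0.76, which is 0.47 further down on the log2 scale, and this gap ranged from -0.57 to -0.19 over the alternatives, with -0.28 without DUS KO replicate 1 and -0.19 without both WT replicate 2 and DUS KO replicate 1. On the log2(TPM + 1) scale the median of the 132 genes changed sign to 0.02, as the median of all features moved to 0.22, and the stalk genes stayed 0.50 below the former.

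Only 4 of the 132 genes had a log2 fold change below those of RPP0, RPP1A, RPP1B and RPP2A, namely RPL41A at -1.33, RPL41B at -1.22, RPL7B at -0.90 and RPS24B at -0.85. Below RPP2B there were 8. Among all features tested, 5.13% lay below RPP1A, 5.85% below RPP0, 6.58% below RPP2A, 6.73% below RPP1B and 10.04% below RPP2B. The stalk genes were thus less extreme among all features than among ribosomal protein genes. Ribosomal protein genes of nearly equal WT level were closer to 0, since the 10 genes directly above or below a stalk gene in WT TPM ranged from -0.47 for RPS31 to -0.07 for RPL25. In TPM, RPS31 and RPS28A, next above and below RPP1A, had 17398 to 21648 and 14180 to 20381 in WT. In DUS KO they had 14930 to 20412 and 17613 to 19717 TPM. RPP1A had 14312 to 21951 TPM in WT and 11899 to 14294 TPM in DUS KO. Next to RPP0, RPL34A and RPS0A had 473 to 536 and 465 to 471 TPM in WT, and 459 to 570 and 394 to 520 TPM in DUS KO. RPP0 had 460 to 552 TPM in WT and 355 to 356 TPM in DUS KO.

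**Figure D3:**
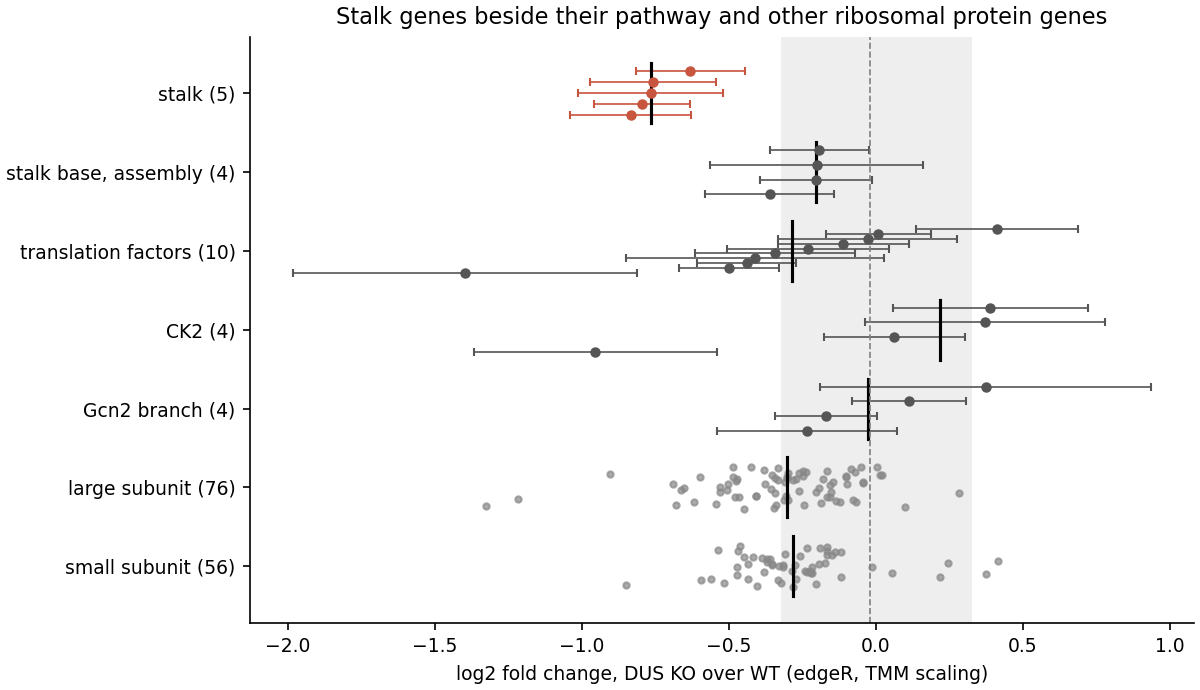
Log2 fold changes in DUS KO over WT from edgeR with TMM scaling, with SE as error bars for the stalk genes and their pathway lists and points alone for the other ribosomal protein genes. Black bars mark the medians of the lists, the dashed line the median of all features tested (-0.02) and the shaded band their middle 50%, and the stalk genes lie at -0.83 to -0.63.

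The balance between stalk transcripts lay in overlapping ranges in both strains. RPP1A exceeded RPP1B in TPM by 7.76, 7.38 and 5.42 times in WT and 8.17, 5.37 and 6.80 times in DUS KO. The ratio of RPP2A to RPP2B averaged 0.305 ± 0.0745 in WT and 0.283 ± 0.0601 in DUS KO (SD, n = 3). The summed P1 genes over the summed P2 genes averaged 1.38 ± 0.185 and 1.26 ± 0.178. P1 and P2 genes on average exceeded RPP0 18.3 ± 3.67 times in WT and 18.7 ± 1.45 times in DUS KO. This ratio rests on the division by effective length, and without it was 5.52 in WT and 5.67 in DUS KO. All 4 ratios overlapped between the strains, and a shift smaller than these spreads was not detectable with 3 libraries each.

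**Figure D4:**
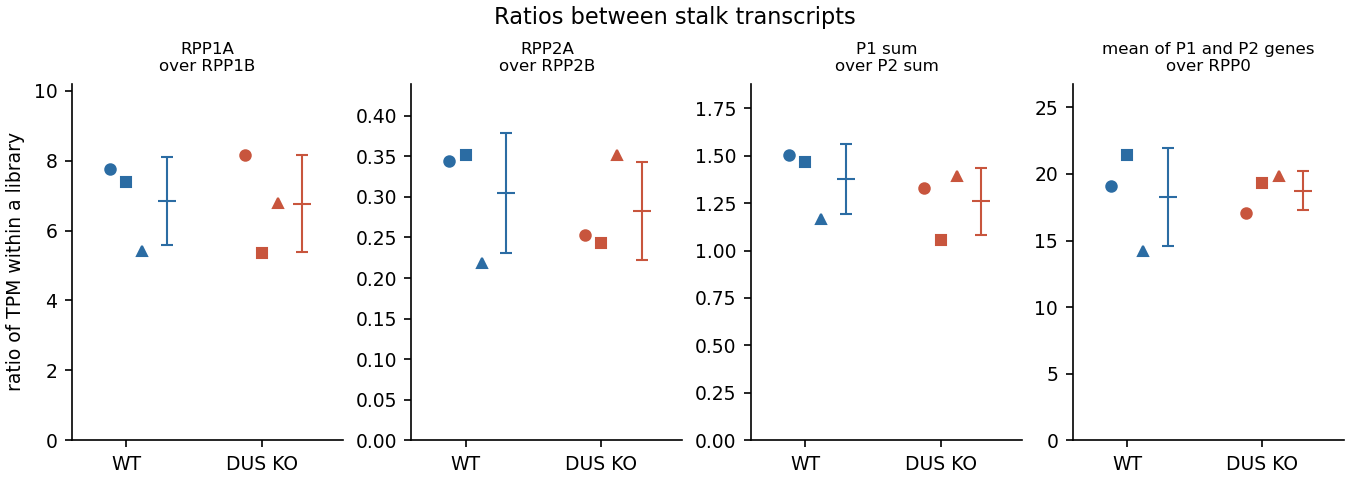
Ratios of TPM between stalk transcripts within each library, as circles, squares and triangles for replicates 1, 2 and 3, with the mean and SD (n = 3) beside them. The WT and DUS KO points overlap in each of the 4 panels.

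Genes for proteins that hold, build or modify the stalk were counted as lists. The list of stalk base and assembly genes comprised RPL12A and RPL12B, whose protein binds beside P0, and MRT4 and YVH1, which act when P0 joins the maturing subunit. Their median log2 fold change was -0.20, the groups of all 4 overlapped, and 0 of 4 had an unadjusted p under 0.05 in edgeR's test. Of all features, 4.93% were lower and 3.33% higher at that threshold. MRT4 had the lowest value, -0.36 (SE 0.22). Protein kinase CK2 phosphorylates the P proteins, and its 4 subunit genes had a median of 0.22. CKA1 was at 0.39 (SE 0.33), CKA2 at 0.37 (SE 0.41) and CKB1 at 0.06 (SE 0.24), each with overlapping groups. CKB2, a regulatory subunit, had 19.2, 27.8 and 14.1 CPM in WT and 12.3, 8.70 and 10.4 CPM in DUS KO. Its groups did not overlap, and its log2 fold change was -0.95 (SE 0.41, edgeR's unadjusted p = 0.0384, adjusted p = 0.577). All DUS KO libraries lay below all WT libraries for 7.68% of features. The CKB2 value in DUS KO replicate 3, the shallowest library, rests on few reads.

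The GTPases and ATPases that work with the ribosome had a median of -0.29 over 10 genes. In edgeR's test 0 were called and 2 were lower at an unadjusted p under 0.05, beside 0.085% and 4.93% of all features. One was YEF3, which encodes elongation factor eEF3, at a log2 fold change of -0.50 (SE 0.17). The other was TEF2, a gene for eEF1A, at -0.44 (SE 0.17), while its twin TEF1 was at 0.01 (SE 0.18). TEF1 and TEF2 are near-identical copies whose reads can be divided between them. Summed, they had a log2 ratio of means of -0.26 with groups that did not overlap. Of the gene pair for eEF2, EFT1 was at -0.11 (SE 0.22) and EFT2 at -1.40 (SE 0.58), the lowest of the 10 genes, and the groups of both overlapped. How reads were divided within this pair was not tested, so the separate values carry that limit. Summed, EFT1 and EFT2 had 786, 713 and 1477 CPM in WT and 640, 630 and 686 CPM in DUS KO. The log2 ratio of means was -0.61, but -0.20 without WT replicate 3, whose value was far above the others. Leaving out libraries for summed pairs was chosen after the data were seen. The Gcn2 branch comprised GCN2, GCN1, GCN20 and GCN4, the kinase, its activators and the transcription factor downstream. Its median was -0.03, and GCN4 was at -0.17 (SE 0.17). In edgeR's test 0 of 4 had an unadjusted p under 0.05, beside 4.93% of all features lower and 3.33% higher.

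Likeness to a stalk gene was measured over the 6 libraries. Among 772 features, the highest Pearson correlations of log2 CPM were with PHO12 (0.993) for RPP0, RPS25B (0.999) for RPP1A, RPL30 (0.976) for RPP1B, RPS9B (0.984) for RPP2A and MGR2 (0.979) for RPP2B. Next came RPL8B (0.988), RPS9B (0.989), TIM23 (0.972), RPL36A (0.981) and RPL41A (0.976) in the same order. Between stalk genes, the correlations ran from 0.772 for RPP0 with RPP2A to 0.971 for RPP1B with RPP2B. RPP1A and RPP2A, a P1 gene and a P2 gene, were at 0.969. All points share libraries, scaling and strain, and the values describe 6 libraries only.

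A short search upstream gave no common element. The letters CACCCNNAC, the core of the motif of Rap1, a regulator of ribosomal protein genes, were looked for on both strands of the 500 nt before each start codon. They were found before 0 of the 5 stalk genes and in 253 of 6006 such regions (4.21%). This says only that these letters are not in these windows.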

How the data were processed

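RNA-seq libraries of WT and DUS KO (3 each) were analysed, and the matching D-seq libraries were not used here. For each library the authors deposited estimated counts, which are not normalized, and TPM, which they normalized by effective length and library total. Reads were trimmed with bbduk, collapsed on the UMI with dedupe and aligned to sacCer3 with bbmap for the study's sequencing as a whole. No label, header or method names the program that made the estimated counts.

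The genes and lists were chosen with earlier results of these data known. Estimated counts were rounded, filtered with filterByExpr (5884 features kept, 728 removed) and scaled by TMM (factors 0.878 to 1.03 in WT, 1.03 to 1.09 in DUS KO). Strains were compared with edgeR 4.0.16 (robust quasi-likelihood, Benjamini-Hochberg over all features, R 4.3.3), and scripts were tested on simulated data. The biological coefficient of variation was 37.5%. The SE is the log2 fold change divided by the square root of F. Alternatives used DESeq2 1.42.0, limma 3.58.1, other scalings, filters and pseudocounts, a replicate block, and libraries left out. Sequences came from the RefSeq R64 genome. Named genes were the stalk genes, list members, the ribosomal protein genes next to each stalk gene in WT TPM and the 2 most correlated features with a mean CPM of at least 100. RPL41A, RPL41B, RPL7B, RPS24B and YLR339C were named after their values were seen. Protein sequences were not used here.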

Additional observations from a re-analysis of the deposited data

How the results depend on the processing

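Of 19 alternatives, 2 called a stalk gene. DESeq2 called 4, with log2 fold changes of -0.79 (RPP0), -0.83 (RPP1A), -0.75 (RPP1B) and -0.62 (RPP2B), and leaving out 1 library called 0 to 1. The adjusted p of stalk genes ranged from 0.000436 with DESeq2 to 0.993 without WT replicate 2 and DUS KO replicate 1. Leaving out 1 library gave RPP1A values of -1.03 to -0.62.

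Over all features edgeR called 5, with the deleted genes DUS1, DUS2 and DUS4 among them. Total counts alone called 3, a filter of 10 counts per library 1, DESeq2 58 and limma-voom 0 (600 at an unadjusted p under 0.05). On the log2(TPM + 1) scale limma called 10, and 8 among features with a mean TPM of at least 10. Without WT replicate 2 and DUS KO replicate 1, 1 feature was called and RPP1A was at -0.54. Leaving out 1 library called 1 (without DUS KO replicate 1) to 12 (without WT replicate 1). The cause of these differences was not tested. The filter of 10 counts left 3482 features. DUS1, DUS2 and DUS4, with 0, 3 and 0 estimated counts summed over the DUS KO libraries, cannot pass it.

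Same-numbered libraries of the strains correlated in their deviations at 0.03, -0.04 and -0.07, so the numbers gave no sign of pairing. With a replicate block 3 features and 0 stalk genes were called, and the stalk median was -0.78.

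The mean of P1 and P2 genes over RPP0 depends on length. Without length it was 5.52 in WT and 5.67 in DUS KO, and with full length 16.4 in DUS KO. Scaling moved the median of all features from -0.02 (TMM) to 0.16 (total counts) and 0.29 (log2(TPM + 0.1)). The depth of DUS KO replicate 3 limits the features with few counts more than the stalk genes.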

Other observations

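RPP0 had nearly the same TPM in all 3 DUS KO libraries, with a coefficient of variation of 0.139%, against 9.45% in WT. The other 4 stalk genes varied by 9.83% to 19.3% in DUS KO. In CPM the variation of RPP0 in DUS KO was 7.82%, so the close match holds on the TPM scale only.

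Values by feature length were as follows. Among tested features of 300 to 350 nt, stalk genes left out, 241 had a median log2 fold change of 0.19, and the 13 ribosomal protein genes of that length had a median of -0.22. The 301 features of 900 to 1000 nt, the length class of RPP0, had a median of -0.0044.

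YLR339C, which shares reads with RPP0, had 40.8, 30.1 and 90.6 CPM in WT and 97.5, 83.7 and 56.5 CPM in DUS KO. Its groups overlapped, with a log2 fold change of 0.59 (SE 0.37) in edgeR's test.

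P1 genes on the dihydrouridine list, RPP1A and RPP1B, had log2 fold changes of -0.83 and -0.76, beside -0.79, -0.76 and -0.63 for the 3 stalk genes not on it, and this difference was not tested. The paper calls its number of mRNA sites a lower bound, because coverage sufficed for only a small part of the transcriptome. A gene missing from the list may therefore still carry dihydrouridine.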
